A study of Caenorhabditis elegans with 12 samples.

Results

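The regions described here were the KLF-1-YFP ChIP-seq peaks that lay far upstream of the gene they had been assigned to. A peak was taken as distal when at least 1 gene was named for it in the deposited list of its library and when the smallest distance from the edge of the peak to any of these genes was over 2000 bp. This rule gave 446 distal peaks, out of 1652 peaks with an assigned gene and 3116 peaks in all. Of the other peaks with a gene, 633 overlapped it and 573 lay 1 to 2000 bp away from it. No gene was named for 1464 peaks, which could therefore not be classed by distance. The label of 2 to 5 kb upstream was borne out by the lists, since the distances ran from 2004 to 4886 bp and every assigned gene pointed away from its peak.

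KLF-1 is a Krüppel-like factor, a family of zinc-finger transcription factors that bind GC-rich and CACCC-type DNA elements in promoters and in enhancers. In *C. elegans* intergenic distances are short, and most known regulatory elements sit close to the start of a gene, so that a site several kilobases upstream often lies near another gene as well. KLF-1 is known for its action in the intestine and for its part in the long life of mitochondrial mutants.

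Both strains carried the same transgene, in which the gut-specific *vha-6* promoter drives *klf-1-yfp*, so that the tagged protein was expressed from an intestinal promoter while chromatin came from whole animals. One background was the long-lived mitochondrial mutant *isp-1;ctb-1*, with the alleles *qm150* in the gene of the Rieske iron-sulphur protein and *qm189* in that of cytochrome b, both of respiratory complex III. The other was the wild type N2 (WT). *Is[pvha-6::klf-1-yfp]* was present in both. Synchronised worms of both strains grew from the egg on HT115 bacteria with the L4440 plasmid, and were collected on day 1 of adulthood. Bound DNA was recovered with GFP-TRAP, a bead that captures GFP-type tags, in 3 ChIP libraries for each strain. An input library went with every ChIP library, and no ChIP library from animals without the tag was analysed here. The lists of the mutant held 620, 386 and 565 peaks, and those of WT 577, 665 and 303 peaks. They give no read counts, so that the depth behind a single peak is unknown. All mutant ChIP libraries had more uniquely mapped reads than any WT ChIP library, and strain and depth cannot be told apart in what follows. Nothing in the labels ties the replicates to separate cultures, and p-values then measure a spread that may be technical.

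Distal peaks were found in every library and their number did not separate the strains. The mutant libraries held 61, 61 and 81 distal peaks and the WT libraries 87, 94 and 62. The means were 67.7 ± 11.5 in mutant and 81 ± 16.8 in WT libraries (SD, n = 3 each), a difference of -13.3 peaks (two-sided exact permutation test, p = 0.2, where 3 libraries against 3 cannot go below 0.1). As a share of the peaks with a gene, distal peaks made up 15.3, 31.3 and 26% in the mutant libraries, against 31.4, 29.3 and 41.3% in the WT libraries. The mean share was 24.2 ± 8.13% in mutant and 34 ± 6.43% in WT libraries, and this difference of -9.79 percentage points gave an exact permutation p of 0.2 as well. The lowest share stood in mutant replicate 1, which had the longest list of peaks with a gene (398), and the highest in WT replicate 3, which had the shortest (150). In this way 8 measures were compared between the strains, and the lowest p-value after Benjamini-Hochberg adjustment was 0.267.

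**Figure D1:**
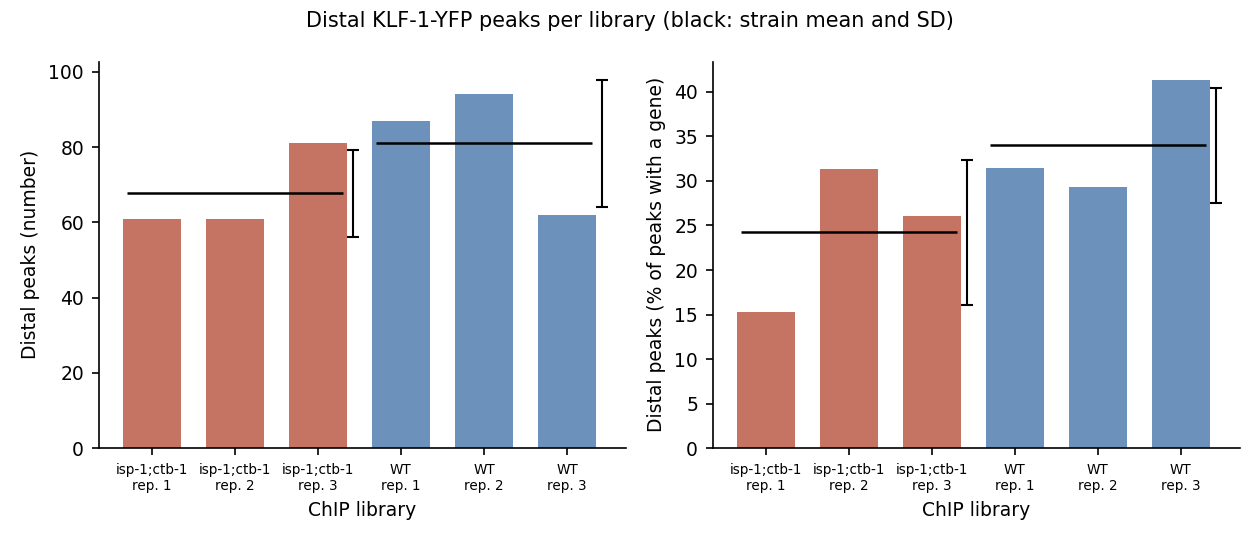
Number of distal peaks (left) and their share of the peaks with an assigned gene in percent (right) in each ChIP library, with *isp-1;ctb-1* in red and WT in blue. Black lines are the strain means and black bars the SD of 3 libraries. The strains overlapped in number, with 61 to 81 peaks in the mutant and 62 to 94 in WT, and in share, where mutant replicate 2 (31.3%) stood above WT replicate 2 (29.3%).

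The distances were spread over the whole range, with fewer peaks at the far end. The median distance was 3362.5 bp with quartiles at 2589 and 3929.2 bp. Of the 446 distal peaks, 186 lay up to 3000 bp from the nearest assigned gene, 157 lay over 3000 and up to 4000 bp away and 103 lay further than 4000 bp. The median distance per library was 3129, 3337 and 3432 bp in the mutant and 3399, 3238 and 3451.5 bp in WT. The rule that chose the peaks used this distance, so no conclusion is drawn from its exact permutation p of 0.6 between the strains. The widest distances were 4886 bp at *Y47C4A.1* in mutant replicate 2, 4873 bp at *Y14H12A.2* in mutant replicate 3 and 4872 bp at *Y105C5A.13* in WT replicate 1. Just inside the limit of 2000 bp stood 2 peaks of the mutant at 2004 bp from *Y57G11C.51*, with fold enrichments of 1.68 and 1.56, and 1 peak of WT replicate 1 at 2006 bp from *Y102F5A.1* with a fold enrichment of 2.03. Just outside it stood WT replicate 2 peaks at *Y102F5A.1* (1998 bp, fold enrichment 1.98), at the P-type ATPase gene *catp-1* (1996 bp, 1.66) and at *cyp-13A8* (1994 bp, 1.64). The same place upstream of *Y102F5A.1* was therefore distal in 1 WT library and not in another.

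**Figure D2:**
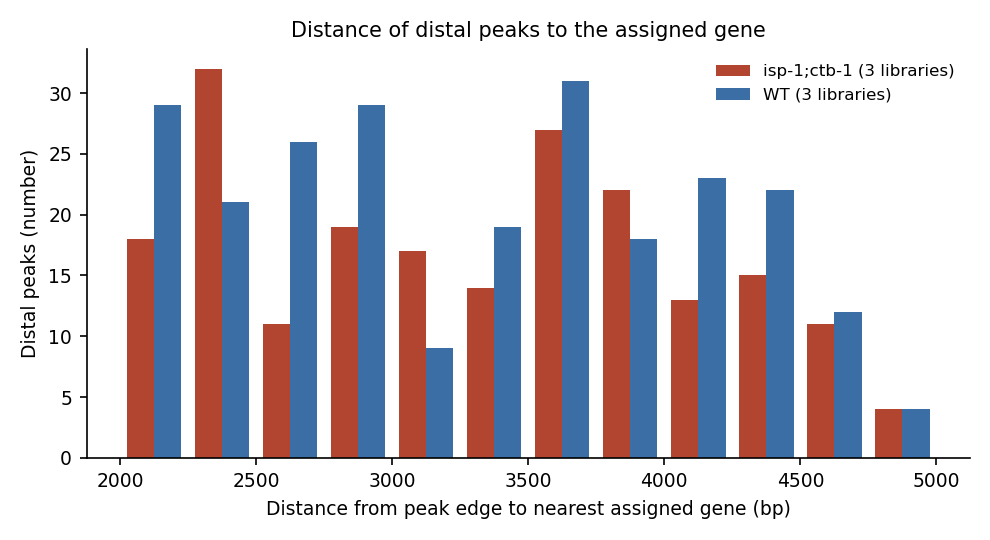
Distance in bp from the edge of a distal peak to its nearest assigned gene, in bins of 250 bp, for the 3 *isp-1;ctb-1* libraries (red) and the 3 WT libraries (blue). The distances fill the range of 2004 to 4886 bp in both strains, with 103 of 446 peaks beyond 4000 bp.

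Assignment reached upstream alone. All 530 pairs of a distal peak and a gene had the peak upstream of the gene by its strand, 251 with the gene on the plus and 279 on the minus strand. The same held for all 2119 pairs of any peak with a gene that it did not overlap. One gene was named for 376 distal peaks, 2 genes for 57, 3 for 12 and 4 for 1. Of the 70 distal peaks with several genes, 50 had them on both strands and thus lay between genes that are read away from each other. The peak with 4 genes came from a WT library and was assigned to the haem transporter genes *hrg-4* and *hrg-5* and to *fkb-1* and *kdin-1*.

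The gene at a distance was often not the nearest gene. Overlapping distal peaks of all 6 libraries were merged into 153 distal regions of 200 to 3636 bp (median 456 bp). In the RefSeq gene table of assembly WBcel235, 53 of these regions (34.6%) had a protein-coding gene within 2000 bp and 19 had one within 500 bp. For 74 regions the nearest protein-coding gene was not among the genes assigned to it. Examples were the region assigned to *mage-1*, which lay 198 bp from *F40E3.3*, and that assigned to *lgc-35*, a ligand-gated ion channel gene, which lay 52 bp from *pes-10*. The median distance to the nearest protein-coding gene was 2393 bp, and the largest was 7454 bp, at a region of the long noncoding RNA *linc-85*. Genes of piRNAs were left out when annotated genes of any kind were sought, so regions may also cover these. Other annotated genes lay under 15 regions, and these were 7 pseudogenes, 4 noncoding RNAs, 2 protein-coding genes, 1 snoRNA and 1 rRNA. The share of regions with a protein-coding gene within 2000 bp was 30.8% for regions with a peak in mutant libraries alone, 35% for those in WT libraries alone and 35.8% for those in both strains.

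Chromosomes IV, II and X held the most distal peaks. On chromosome II there were 93 (30% of its peaks with a gene), on X 92 (31.5%), on I 79 (20.4%) and on V 78 (22.5%), and on IV distal peaks made up 32.8% of the peaks with a gene. None of the 607 peaks on chromosome III and of the 8 on mitochondrial DNA carried a gene in the lists used here, so that no distal peak could be found there. Mutant and WT libraries had 52 and 52 distal peaks on chromosome IV, 46 and 46 on X, and 40 and 39 on I. On chromosomes II and V the mutant libraries had fewer, with 37 against 56 in WT on II and 28 against 50 in WT on V. These sums over 3 libraries were not tested.

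Distal regions ranged from places that every library shared to places seen once. A library was counted as holding a region when any of its peaks overlapped it by at least 1 bp, and the absence of a peak says only that none was listed there. All 6 libraries held 27 of the 153 regions (17.6%), against 7.06% of the 1218 regions made by merging every deposited peak. The 2 sets were merged differently, here and in the background shares that follow. A long peak of another class can meet several distal regions, as upstream of *dbd-18*, but gives 1 region in the background. How far this changes the distal shares was not tested. At least 2 libraries of each strain held 48 regions (31.4%, background 15.1%). Both strains held 67 regions (43.8%, background 27.4%), while 49 regions (32.0%, background 48.5%) came from 1 library. These shares are descriptions, because regions are not independent of each other: the 153 regions fell into 112 stretches with gaps of at most 2000 bp, and 67 of them sat in 26 stretches with 2 to 5 regions each. Longer regions also have more room to be met by a peak, and those in all 6 libraries had a median length of 1154 bp, against 418 bp for the others.

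The strains differed in how they contributed. At least 2 WT libraries held 90 regions (58.8%, background 33.3%), and at least 2 mutant libraries held 60 (39.2%, background 30.5%). Mutant libraries alone held 26 regions (17%, background 37.8%) and WT libraries alone 60 (39.2%, background 34.7%). All 3 mutant libraries and no WT library held 4 regions (2.61%, background 4.93%), and all 3 WT libraries and no mutant library held 9 (5.88%, background 3.12%). A distal peak of mutant replicates 1, 2 and 3 was met by a peak of another mutant library in 71.3, 68.0 and 51.9% of cases and by a peak of a WT library in 62.8, 83.1 and 77.4%. A distal peak of WT replicates 1, 2 and 3 was met by a peak of another WT library in 68.4, 63.8 and 98.4% of cases and by a mutant peak in 37.2, 34.8 and 55.4%. In mutant replicates 2 and 3 the other strain was thus met more often than the own strain, and in no WT library was this so. Peaks at 1 to 2000 bp met the own strain in 31.4, 73.5 and 57.2% in the mutant and 62.8, 54.1 and 96.6% in WT. They met the other strain in 11.05, 51.5 and 41.7% in the mutant and 44.9, 36.4 and 58.3% in WT. Peaks over a gene met the other strain in 14.2, 40.4 and 40.3% in the mutant and 34.5, 24.6 and 46.2% in WT. Distal shares for the other strain thus lay above both classes in each mutant library and between them in each WT library. This was not tested.

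**Figure D3:**
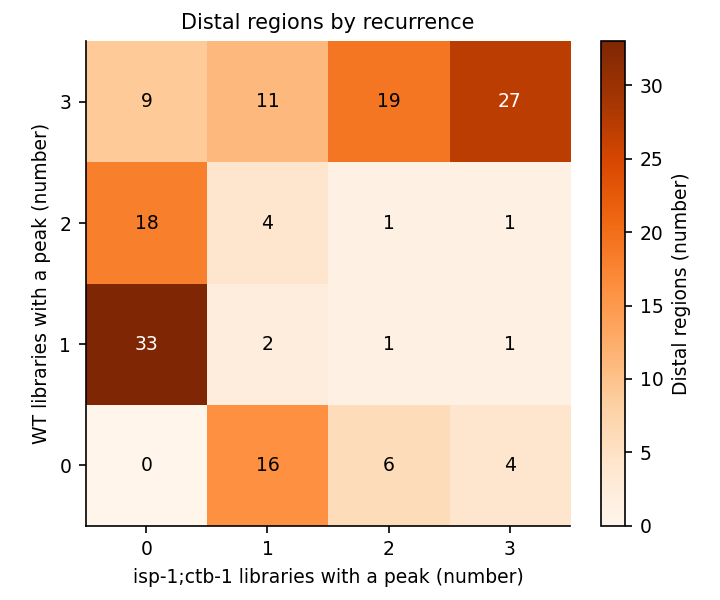
Number of distal regions by the number of *isp-1;ctb-1* libraries (horizontal) and of WT libraries (vertical) with an overlapping peak, coloured by that number. The 2 fullest cells are the 33 regions in 1 WT library alone and the 27 regions in all 6 libraries, and 19 more regions had peaks in 3 WT and 2 mutant libraries.

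Within the 27 regions held by all 6 libraries, fold enrichments over input were modest and alike. Fold enrichment is the value of the peak caller for ChIP over input and is compared within a list. The medians over the 27 regions were 1.38, 1.46 and 1.65 in the mutant libraries and 2.05, 2.00 and 1.83 in the WT libraries. Chromosome X held 12 of them, IV held 8, I held 3, and II and V held 2 each. With every deposited peak merged, regions of all 6 libraries numbered 12 on X, 13 on IV, 16 on I, 11 on II and 18 on V. With only peaks that had a gene merged, they numbered 12, 12, 7, 6 and 4. The 12 distal regions on X include the 3 of *dbd-18* described below. The 27 distal regions lay in 21 stretches. A distal peak in each library was present at 13 of the 27, and the others were met in part by peaks of other classes. The 3 regions upstream of *dbd-18* on chromosome X came from 3 separate peaks of mutant replicate 1, and in each of the other 5 libraries from a single peak of 3265 to 3386 bp that ended 1944 to 1957 bp from the gene and so was not distal itself.

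The best ranked of the 27 lay upstream of *sea-2*, an autosomal gene whose zinc-finger protein takes part in reading the ratio of X chromosomes to autosomes in sex determination. The region (chrII:3945392-3946545) lay 3600 bp from the gene in the lists and had a distal peak in all libraries. Its fold enrichment was 1.76, 2.13 and 2.18 in mutant libraries and 2.04, 2.42 and 1.72 in WT libraries, and the value of WT replicate 2 was the highest of any distal peak in that list. It stood at rank 34 of 386 peaks in mutant replicate 2 and at rank 8 of 665 in WT replicate 2. In mutant replicate 1, by contrast, it stood at rank 446 of 620.

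A region on chromosome X (chrX:16758428-16760098) lay 3055 bp from *C10E2.1* and 4782 bp from *C10E2.5*. Its fold enrichment was 1.83, 1.64 and 1.86 in mutant libraries and 2.25, 2.20 and 1.83 in WT libraries. The next regions by rank were those of *Y75D11A.1* and *Y75D11A.6* on X (1.55, 1.59 and 1.81 in the mutant, 2.25, 2.20 and 1.84 in WT) and of *slmp-1* on IV (1.38, 1.58 and 1.65 in the mutant, 2.15, 2.22 and 1.84 in WT). The *slmp-1* region covered a stretch annotated as a *puf-4* pseudogene, where values are uncertain if reads also match another copy. The other 6 of the 10 best ranked were assigned to *Y119C1B.3* with *zig-9* (an immunoglobulin-domain protein), *C24H10.3*, *Y95B8A.2* (at the place of the astacin protease gene *nas-30* in RefSeq), *ttr-17* (transthyretin-like), *haf-7* (a half-molecule ABC transporter) and *pudl-1* with *pudl-2*. Across these 6, fold enrichments were 1.33 to 1.41 in mutant replicate 1 and 1.98 to 2.16 in WT replicate 1. The *pudl-1* and *pudl-2* region spanned 2046 bp and lay 487 bp from *clec-80*, a C-type lectin gene that was not among its assigned genes. The *ttr-17* and *C24H10.3* regions also covered pseudogenes.

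Among the other regions of all 6 libraries were some at genes with well-known products, named here after their values were seen. *hex-5* encodes a lysosomal hexosaminidase, and its region 2860 bp upstream had fold enrichments of 1.28, 1.46 and 1.53 in the mutant and 1.88, 1.88 and 1.76 in WT. *vha-7* encodes a subunit of the vacuolar proton ATPase, and its region, 2040 bp upstream and 706 bp from *C26H9A.3*, had 1.35, 1.44 and 1.66 in the mutant and 1.98, 1.97 and 1.80 in WT. Its distal peak came from mutant replicate 1, and the other libraries met it with peaks of other classes. A region of *vha-19*, another vacuolar ATPase gene, had peaks in 2 mutant and 3 WT libraries. So did regions of *unc-87*, which encodes an actin-binding protein of muscle, and of *che-10*, which encodes the rootletin of ciliary rootlets.

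The 4 regions of all 3 mutant libraries and no WT library had fold enrichments of 1.97 to 2.57. The best ranked was that of *mage-1*, a gene of the MAGE family (chrI:2639617-2640041, 2683 bp from the gene). Its fold enrichment was 2.57, 2.13 and 2.27 in the mutant libraries, at ranks 29, 27 and 49, and it was the highest of all distal peaks in mutant replicates 1 and 2. The region next to *goa-1*, the alpha subunit of the G protein Go, lay 3153 bp from it and 3078 bp from *C26C6.9*, and covered an annotated snoRNA, *C26C6.13* (2.40, 1.97 and 2.13). The region of *daf-5*, which encodes a Sno/Ski protein of the TGF-beta pathway that governs dauer formation, lay 2433 bp away (2.30, 2.02 and 2.04). It had no annotated gene closer than *daf-5*, with piRNA genes left out. That of *M01A12.4* lay 3795 bp away (1.98, 1.99 and 2.36), and its value in mutant replicate 3 was the highest of that list's distal peaks.

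The other 22 regions of mutant libraries alone came from 1 or 2 libraries. Among them, named after their values were seen, were 2 regions of *rho-1*, which encodes the RhoA GTPase, 2543 bp upstream in 1 library and 3289 bp upstream in 2 libraries. A region of 1 library lay 2422 bp from *letm-1*, whose product sits in the inner mitochondrial membrane, and 4511 bp from the lipin gene *lpin-1*. Another of 1 library lay 4090 bp from *K08F11.1* and 4766 bp from *miro-1*, whose product sits in the outer mitochondrial membrane. *wnk-1*, a kinase gene of osmotic regulation, and *mtrr-1*, methionine synthase reductase, each had a region in 2 libraries.

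The 9 regions of all 3 WT libraries and no mutant library ranged widely in rank. That of *C56G3.2* (chrX:7360584-7361257, 4310 bp from the gene) had fold enrichments of 2.23, 2.48 and 2.14 in WT replicates 1, 2 and 3, at ranks 36, 6 and 4. Next by mean rank came a region on chromosome II, 3665 bp from *C16C8.10*, with 2.41, 2.15 and 1.80, the first of these being the highest distal value in WT replicate 1. It was followed by the regions of *Y59H11AM.4* (1.80, 2.03 and 1.85) and *W05H12.4* (2.05, 1.61 and 1.91). The region of *nst-1*, the gene of nucleostemin, a nucleolar GTPase, lay 4396 bp away (1.81, 1.88 and 1.72) but 1893 bp from *cct-4*, a chaperonin subunit gene. A second region of *C16C8.10*, 2583 bp from the gene, had 1.83, 1.87 and 1.71. Lower in rank stood those of the astacin protease gene *nas-6* (1.76, 1.62 and 1.43) and the chemoreceptor genes *srsx-7* with *srsx-6* (1.75, 1.63 and 1.35). The ninth, outside the rule for named regions, was assigned to *idpb-1*. WT libraries alone also held 2 regions of *tomm-40*, the import channel of the outer mitochondrial membrane, chosen for naming after their values were seen, in 2 libraries and in 1 library.

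Several genes had distal regions at more than 1 place. *linc-85* on chromosome I had 4, at 2086, 2699, 3496 and 4294 bp upstream, and all were found in WT libraries alone, 3 of them in WT replicate 2 alone. *zig-9* had 3, at 2012, 2788 and 4342 bp, with peaks in 4, 5 and 6 libraries. *Y59H11AM.4* had 3, at 2307, 2917 and 3920 bp, each in all WT libraries and those at 2917 and 3920 bp also in mutant replicate 3. *thoc-1*, a gene of the THO complex for mRNA export, had 3: the region at 3040 bp was found in 2 mutant libraries and 1 WT library, and those at 3791 and 4871 bp in 2 WT libraries and no mutant library. *C27A2.7* had 3, at 2570, 3337 and 4140 bp, all of WT libraries alone. The last of these lay 2337 bp from *dsh-2*, a dishevelled gene of Wnt signalling.

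In all, 154 genes were assigned to distal peaks, 151 of them protein-coding, with 2 lincRNAs and 1 microRNA. They made up 15.4% of the 1002 genes assigned to any peak. Of the 154, 59 had distal peaks in both strains, 47 in mutant libraries alone and 48 in WT libraries alone, and 15 had them in all 6 libraries. These counts take distal peaks alone. *vha-7*, for example, counts for the mutant alone, although peaks of all 6 libraries met its region. The same shares over all 1002 genes were not computed, so no difference between the strains is read from these counts. A peak within 2000 bp was also found for 38 of the 154 genes (24.7%). A peak close to 1 gene can also name a second gene further away, and such cases were not counted.

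Of the cytochrome P450 genes, the oxidases of xenobiotic metabolism, 3 were assigned to any peak and 2 to distal peaks, each time in WT libraries. The 2 were 66.7% of the 3 assigned genes and 2.70% of the 74 genes of the family off chromosome III, where all protein-coding genes gave 15.5% and 0.871%. *cyp-13A8* had regions at 3247 bp in WT replicate 1 (fold enrichment 2.15) and at 4353 bp in WT replicate 2 (1.73), besides the WT peak at 1994 bp given above. *cyp-33C9* had 1 region at 4603 bp in WT replicate 1 (1.62), which lay 562 bp from *Y73C8C.4*. No UDP-glucuronosyltransferase or glutathione S-transferase gene was assigned to a distal peak, with 1 and 0 assigned to any peak.

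Of the other lists, C-type lectin genes, often linked to pathogen defence, had 3 members among 10 assigned genes. Distal peaks of *clec-175* were found in 2 mutant and 2 WT libraries, that of *clec-9* in mutant replicate 2 and that of *clec-219* in mutant replicate 3. The regions of *clec-175* and *clec-9* were each met by peaks of 2 mutant and 3 WT libraries when peaks of every class were counted. Chemoreceptor genes had 5 among 22 (*srsx-6*, *srsx-7*, *srh-87*, *srh-120* and *srbc-27*), and F-box genes 2 among 22 (*fbxa-221* and *fbxa-214*). Of 9 assigned nuclear hormone receptor genes, *nhr-88* alone had a distal region. Its peaks were in 3 mutant libraries (2.03, 1.83 and 2.24) and in WT replicate 2 (2.04). Among 3 intestinal marker genes, *vit-6*, which encodes a yolk protein, had 1 region 4625 bp upstream in WT replicate 1 (1.91). Among 15 microRNA genes, *mir-239.1* had a region of all 6 libraries, 2879 bp upstream (1.32, 1.41 and 1.57 in the mutant, 1.94, 1.94 and 1.82 in WT). This region lay 1736 bp from *mir-239.2*. The other 19 of 26 lists had no distal member, among them histones (21 genes assigned to any peak), cytosolic ribosomal proteins (14), nuclear respiratory chain subunits (13), heat shock proteins (7) and autophagy genes (7).

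The median fold enrichment of distal peaks lay below that of the other classes in each mutant library and close to it in each WT library. Their median fold enrichment was 1.59, 1.44 and 1.59 in mutant libraries and 1.84, 1.84 and 1.68 in WT libraries. Peaks over a gene had medians of 2.01, 1.83 and 1.93 in mutant and 1.90, 1.89 and 1.64 in WT libraries. Peaks at 1 to 2000 bp had 1.99, 1.68 and 1.93 in mutant and 1.84, 1.82 and 1.66 in WT libraries. Over all 6 libraries, the difference of medians between distal peaks and peaks over a gene was -0.20 ± 0.20 (SD, lower in 5 of 6 libraries; two-sided exact sign-flip permutation test, p = 0.0625, adjusted p = 0.0833 over 4 comparisons). Against peaks at 1 to 2000 bp it was -0.16 ± 0.19 (lower in 4 of 6, exact p = 0.219, adjusted p = 0.219). Both comparisons thus missed the threshold of 0.05. Set apart by strain, which was done after the values were seen, the difference from peaks over a gene was -0.42, -0.39 and -0.34 in mutant libraries, against -0.065, -0.051 and 0.043 in WT libraries. The strains did not overlap, and the exact permutation p was 0.1, the smallest possible with 3 against 3 (adjusted p = 0.267 over 8 measures). The difference from peaks at 1 to 2000 bp was -0.40, -0.24 and -0.34 in the mutant and -0.0037, 0.019 and 0.024 in WT, with the same p-values.

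**Figure D4:**
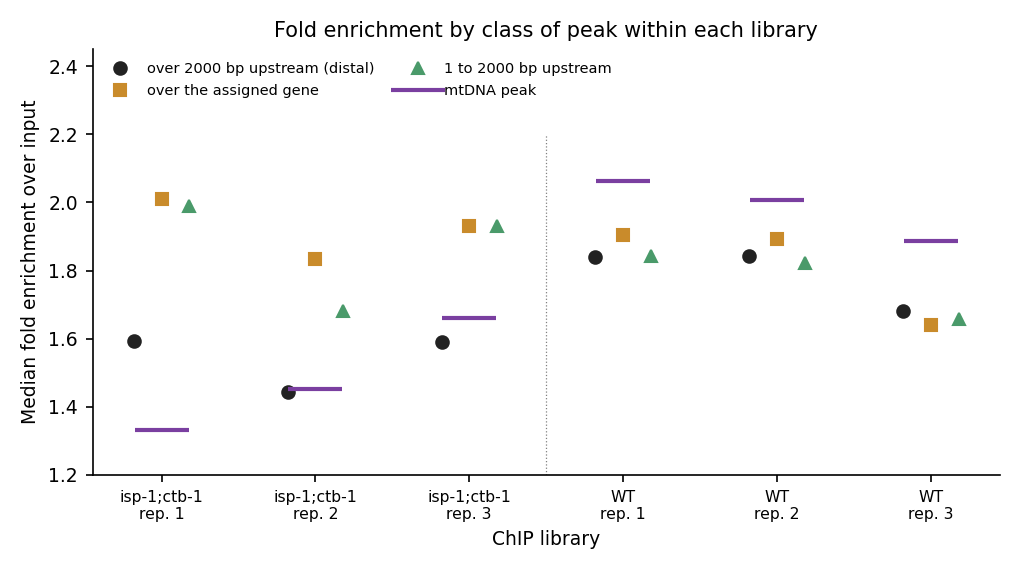
Median fold enrichment over input of distal peaks (black circles), peaks over the assigned gene (orange squares) and peaks 1 to 2000 bp upstream (green triangles), with the fold enrichment of the long mitochondrial DNA peak (purple bars), in each *isp-1;ctb-1* (left) and WT (right) ChIP library. The vertical axis does not start at 0. Distal medians lay 0.34 to 0.42 below those of peaks over a gene in mutant libraries and within 0.065 of them in WT libraries.

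The median length of distal peaks lay above that of the other classes in all 6 libraries, by an amount that missed the threshold after adjustment. It was 352, 391 and 427 bp in mutant and 476, 474.5 and 515 bp in WT libraries. Distal medians exceeded those of peaks over a gene by 19, 38 and 122 bp in the mutant and by 109, 134.5 and 57.5 bp in WT, a mean of 80 ± 48.1 bp (SD, longer in 6 of 6 libraries). They exceeded those of peaks at 1 to 2000 bp by a mean of 62.8 ± 46.9 bp (6 of 6 libraries). Each gave the smallest possible exact sign-flip p of 0.03125, and the adjusted p of 0.0625 was above the threshold.

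A large part of the distal peaks had nearly the fold enrichment of the mitochondrial genome in the same library. Each list held a peak over nearly all of the mitochondrial DNA, with a fold enrichment of 1.33, 1.45 and 1.66 in the mutant and 2.06, 2.01 and 1.89 in WT. Within 5% of that value were 39.3, 55.7 and 32.1% of distal peaks in mutant libraries, and 21.8, 31.9 and 21% in WT libraries (means 42.4 ± 12.1% and 24.9 ± 6.08%, exact permutation p = 0.1, the smallest possible, adjusted p = 0.267). For peaks over a gene the shares were 3.70, 19.7 and 17.6% in the mutant and 28.6, 30.8 and 13.6% in WT. For peaks at 1 to 2000 bp they were 6.29, 29.4 and 19.8% in the mutant and 23.1, 27.8 and 22.7% in WT, where they lay close to those of distal peaks. Of the 27 distal regions of all 6 libraries, 19 (70.4%) had a fold enrichment within 5% of the mitochondrial value in most of their libraries. In the whole series this held for 37 of the 86 regions of all 6 libraries (43.0%). Of all 153 distal regions it held for 36 (23.5%), against 165 of the 1218 regions made by merging every deposited peak (13.5%). *fbxa-221* with *elk-2* was an example, with 1.36, 1.45 and 1.65 in the mutant and 2.05, 2.01 and 1.88 in WT. *sea-2* was not at this level in the mutant, where its value was 1.31 to 1.47 times the mitochondrial one. Regions of mutant libraries alone lay above it, with medians of 1.48, 1.37 and 1.23 times the mitochondrial value and 1 of 26 regions at its level, while regions of WT libraries alone lay below it, with medians of 0.883, 0.913 and 0.909 times that value and 14 of 60 regions at its level. The same counts were not made over all merged regions of 1 strain alone. Median fold enrichments of peaks over a gene also lay above the mitochondrial value in each mutant library (2.01, 1.83 and 1.93). In each WT library they lay below it (1.90, 1.89 and 1.64). The same held for peaks at 1 to 2000 bp, with 1.99, 1.68 and 1.93 in the mutant and 1.84, 1.82 and 1.66 in WT. The direction is therefore not read as a trait of distal regions of 1 strain. The part of the mitochondrial level in the recurrence of distal regions was not tested. Each of the 27 regions had a peak at this level in at least 1 library, so that leaving such peaks out can leave none of them in all 6 libraries, and 16 regions were then held by at least 2 libraries of each strain.

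**Figure D5:**
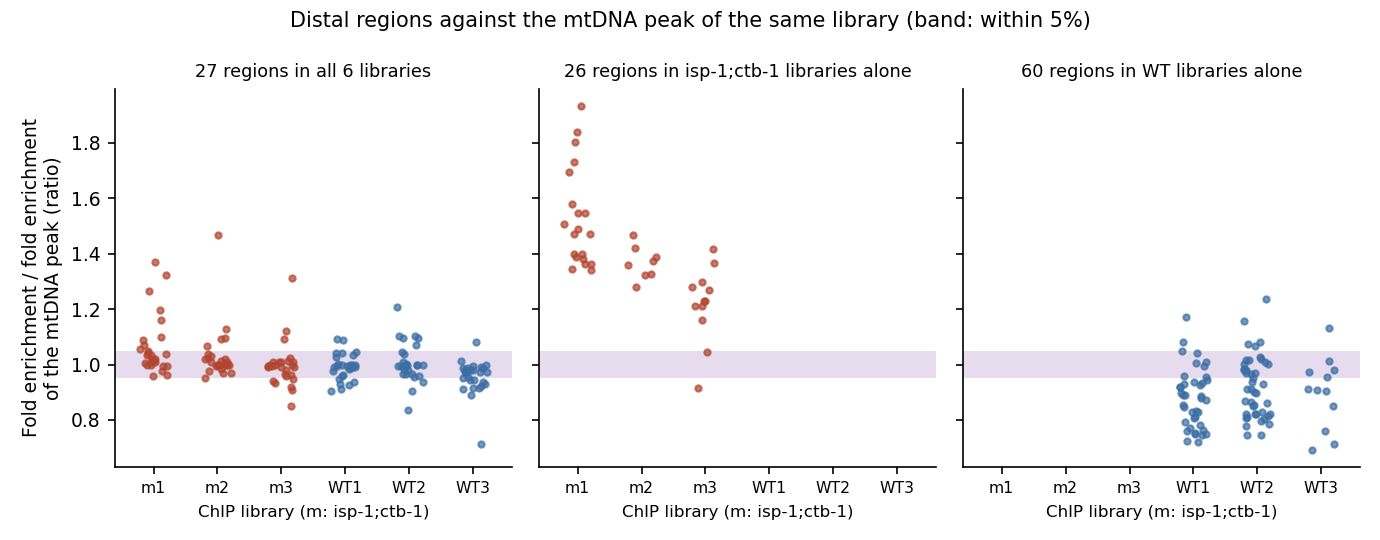
Fold enrichment of distal regions divided by that of the mitochondrial DNA peak of the same library, 1 point per region, in *isp-1;ctb-1* (m1 to m3, red) and WT (WT1 to WT3, blue) libraries, with the range within 5% shaded. The 27 regions of all 6 libraries crowd at the shaded range, the 26 regions of the mutant alone lie mostly above it, and the 60 regions of WT alone lie mostly below or within it.

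The limit given with the study's reporting was also applied. A fold enrichment over 1.5 with a deposited p under 0.05 was met by 117 of 446 distal peaks (26.2%, against 21.3% of all peaks with a gene). By library, 5, 1 and 24 distal peaks passed in the mutant and 33, 30 and 24 in WT. With these peaks alone, no region was held by all 6 libraries and 2 were held by at least 2 libraries of each strain. The few peaks that passed in mutant replicates 1 and 2 largely set these counts.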

How the data were processed

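Reads of 1 end were aligned by the authors with BWA, whose version was not given in the sources used here, as part of the QuickNGS pipeline. Genome and genes were those of Ensembl release 93. Quality was assessed in FastQC 0.10.1. Peaks were called in MACS2 2.0.10 for each ChIP library over its paired input, and libraries were not pooled. Each deposited list gives, for every peak, the ratio of ChIP to input as fold enrichment, and a deposited p-value where a gene is named, with no statement of what it tests. The methods name a window of 2000 bp up- or downstream for the assignment of genes, whereas the deposited lists reach further and upstream alone. The authors' deposited table of their own comparison of the strains holds 2 condition means, a fold change and a p-value, and was not used.

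Lists were matched to libraries by the library name. Distances came from the peak and gene ends on each row. Distal peaks sharing at least 1 bp were merged, and a library held a region if any of its peaks overlapped it by 1 bp. Genes were named by the RefSeq table of WBcel235 (144 of 154 by identifier, 3 by identical position, the others by the name in the lists). Printed coordinates are those of the lists, and of 917 genes of any peak matched by identifier, 878 had both ends within 1000 bp of those in RefSeq. Strains were compared by two-sided exact permutation tests and classes of peaks by sign-flip tests over libraries, with Benjamini-Hochberg adjustment. Named were the 10 best ranked regions of all 6 libraries, and for each strain up to 8 regions in all its libraries and none of the other. Also named were the 3 widest distances and those next to 2000 bp, and up to 3 members of each of 26 gene lists. The highest value per library and 5 genes with several regions were named as well. Members and lists were chosen with earlier results of these data known. No genome sequence was used, and motifs were not analysed here. Functions were tested on simulated peaks. Python 3.11.15, numpy 2.4.6, pandas 2.3.3, scipy 1.17.1 and matplotlib 3.10.9 were used.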

Additional observations from a re-analysis of the deposited data

How the results depend on the processing

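The number and the share of distal peaks kept their direction, lower in *isp-1;ctb-1* than in WT, under every alternative run. With 3 libraries against 3 the exact permutation p cannot go below 0.1, so staying above the threshold was fixed in advance and shows no stability. For the number this p ran from 0.2 to 0.7 and for the share from 0.1 to 0.5, with 0.2 in both main runs. The share stood at 0.1 with a limit of 1500 bp, with a fold enrichment over 2, without peaks within 5% of the mitochondrial value and without mutant replicate 2. Leaving out 1 library at a time moved the difference in number between -22.8 and -6.83 peaks and that in share between -13.3 and -5.34 percentage points. A block by replicate number left them at -13.3 peaks and -9.79 points (exact sign-flip p = 0.5 each). Whether the numbers pair the libraries is not given by the labels and cannot be decided from so few libraries. The deviations of same-numbered libraries correlated at 0.32, 0.34 and -0.36 over 86 regions of all 6 libraries. Those of differently numbered libraries of the 2 strains correlated at -0.70 to 0.53.

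Recurrence counts fell most where peaks were dropped by their fold enrichment. The main counts were 27 regions in all libraries, 48 in at least 2 of each strain, 4 in 3 mutant and no WT libraries and 9 in 3 WT and no mutant libraries. With a fold enrichment over 1.5 and a deposited p under 0.05 they were 0, 2, 0 and 4 (48 distal regions in all), and with a fold enrichment over 2 they were 0, 1, 2 and 2 (50 in all). The first limit was passed by 5 and 1 distal peaks of mutant replicates 1 and 2. It also dropped every peak with no gene, since these carry no deposited p. Fold enrichment is compared within a list, so limits common to all lists largely set these counts in advance. No dependence on peak strength is read from them. Without peaks within 5% of the mitochondrial value, an alternative chosen after seeing the data, the first 2 counts were 0 and 16, and the 0 follows from the construction, since each of the 27 regions had such a peak in at least 1 library. Without peaks over 2000 bp, 14 regions were in all libraries and 11 in 3 mutant and no WT libraries. When only distal peaks counted, 13 were in all libraries. Without regions that had a RefSeq protein-coding gene within 2000 bp, 2 were left in 3 mutant and no WT libraries. In 3 WT and no mutant libraries 5 were then left. With a limit of 3000 bp, 2 were left in 3 mutant and no WT libraries, out of 96 distal regions.

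Leaving out 1 library gave 27 to 40 regions in all the others. At least 2 libraries of each strain held 28 to 48 (28 without mutant replicate 3, 31 without mutant replicate 2). Every remaining mutant library and no WT library held 4 to 7 (7 without either of these replicates). Every remaining WT library and no mutant library held 10 to 24 (24 without WT replicate 3, 16 without mutant replicate 3). Differences in fold enrichment ran from -0.25 to -0.16 against peaks over a gene and from -0.19 to -0.11 against peaks at 1 to 2000 bp, and differences in length from 69.1 to 92.2 bp and from 48.5 to 73.8 bp. None of these passed the threshold, which 5 libraries cannot reach.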
